A study of Homo sapiens with 30 samples.

Results

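The 42 genes described here encode autophagy proteins (13 genes), lysosomal enzymes (9 genes), lysosomal membrane and lipid transport proteins (6 genes), subunits of the proton pump V-ATPase (6 genes), and the TFE transcription factors with their regulators (8 genes). They were taken by symbol from a table of 60675 gene entries, and all 42 were found and passed the filter on low counts in every fit. The cells were SW1783, a human line derived from an astrocytoma, treated during 24 h with herbal decoctions extracted in 70% ethanol, and 30 RNA libraries were sequenced. Every extract was given at 20, 100 and 500 µg/mL, with 3 libraries per concentration for Soshiho-tang and for Yijin-tang, 2 for Okbyeongpung-san and 1 for Soyo-san, and the 3 vehicle libraries came from cells given DMSO (0.1% per the sample labels, 2% per the series description). The comparisons follow the concentration within each extract, 500 against 20 µg/mL, and set the extracts against each other at one concentration. Library names begin with E1 for vehicle, 15 for Soshiho-tang and Yijin-tang, and 14 for Okbyeongpung-san and Soyo-san. These prefixes are called library sets here, and the labels do not say what they stand for. Titles name batch D for Soyo-san and for Okbyeongpung-san replicate 3, and batch E for all other libraries.

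Autophagy wraps cell material in a membrane that fuses with the lysosome, where acid hydrolases degrade it. The proteins MAP1LC3B and GABARAP and their relatives are attached to that membrane and bind the receptors that bring cargo, and the V-ATPase pumps the protons that the hydrolases need. TFEB, TFE3 and MITF are related factors that bind a palindromic E-box in the promoters of many lysosomal genes. When amino acids are plentiful, the Rag GTPases on the lysosome (RRAGC or RRAGD paired with RRAGA or RRAGB), acted on by folliculin (FLCN) and its partners FNIP1 and FNIP2, help mTORC1 hold these factors in the cytoplasm. Astrocytes degrade material that they take up from their surroundings in lysosomes.

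Promoter sequence is shown for 6 members, 5 of them to let the E-box be seen beside genes of different roles and GPNMB for a related letter run. RefSeq gave a promoter for 32 of the 42 members, and the 250 bases before the annotated start are printed in gene orientation, with GRCh38.p14 coordinates. They lie at chr1:38859773-38860022 (minus strand), chr5:131797018-131797267 (minus strand), chr19:7522374-7522623 (plus strand), chr11:1763928-1764177 (minus strand), chr13:113296989-113297238 (plus strand) and chr7:23246525-23246774 (plus strand). Capitals mark CACGTG, the E-box core, in the first 5 sequences, and in GPNMB they mark TCATGTG, the M-box, which is read here from the opposite strand as CACATGA.
RRAGC: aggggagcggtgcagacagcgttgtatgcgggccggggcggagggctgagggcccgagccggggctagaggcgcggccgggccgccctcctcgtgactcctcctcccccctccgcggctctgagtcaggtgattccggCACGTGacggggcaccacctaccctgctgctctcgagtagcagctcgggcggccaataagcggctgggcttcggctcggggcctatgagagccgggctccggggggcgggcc
FNIP1: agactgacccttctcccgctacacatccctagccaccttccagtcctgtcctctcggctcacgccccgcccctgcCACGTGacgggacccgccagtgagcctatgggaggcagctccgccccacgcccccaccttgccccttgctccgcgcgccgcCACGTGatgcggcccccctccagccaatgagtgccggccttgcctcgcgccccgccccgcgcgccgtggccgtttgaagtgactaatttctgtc
MCOLN1: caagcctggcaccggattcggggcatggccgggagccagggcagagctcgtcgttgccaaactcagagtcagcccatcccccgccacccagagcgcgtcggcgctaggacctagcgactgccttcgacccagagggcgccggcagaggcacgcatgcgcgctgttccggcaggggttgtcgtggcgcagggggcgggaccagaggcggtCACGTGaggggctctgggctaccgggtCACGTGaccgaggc
CTSD: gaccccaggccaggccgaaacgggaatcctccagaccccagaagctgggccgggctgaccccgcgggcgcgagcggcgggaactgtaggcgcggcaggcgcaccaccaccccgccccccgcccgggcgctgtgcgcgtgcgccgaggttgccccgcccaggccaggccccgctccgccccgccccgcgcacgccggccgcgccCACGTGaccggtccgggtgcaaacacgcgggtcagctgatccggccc
LAMP1: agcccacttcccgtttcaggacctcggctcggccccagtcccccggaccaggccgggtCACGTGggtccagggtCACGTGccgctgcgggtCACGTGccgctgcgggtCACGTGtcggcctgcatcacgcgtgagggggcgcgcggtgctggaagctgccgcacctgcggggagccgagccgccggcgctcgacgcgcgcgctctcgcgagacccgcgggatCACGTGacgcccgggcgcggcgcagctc
GPNMB: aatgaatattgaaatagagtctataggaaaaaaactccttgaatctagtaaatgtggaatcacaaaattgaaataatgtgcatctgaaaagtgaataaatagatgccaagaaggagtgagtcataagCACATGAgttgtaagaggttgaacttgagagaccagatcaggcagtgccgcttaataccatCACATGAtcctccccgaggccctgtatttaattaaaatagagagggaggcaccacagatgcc

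LAMP1 held 5 copies of CACGTG in these 250 bases, FNIP1 and MCOLN1 held 2 each, and RRAGC and CTSD held 1 each. Searched on both strands over the full window of 250 bases before to 50 after the start, CACGTG was present in 9 of the 32 member promoters (28.1%) and in 7.26% of all 35116 promoters. These 9 were CTSA, CTSD, GAA, NEU1, LAMP1, MCOLN1, RRAGC, FNIP1 and ATP6V0D1. The longer TCACGTG, which contains CACGTG, was in the same number of member promoters and in 3.71% of all promoters. TCATGTG was in 2 member promoters, those of CTSA and GPNMB, and in 2.92% of all. The core TGACNNNGC, which is the letter run known for antioxidant response elements, was in 12 member promoters (37.5%) and 13.3% of all. The shares of all promoters cover every RefSeq window of full length, not only those of genes tested in these cells. The members all passed the low-count filter, so the background is unlike them in that respect. A match describes letters in the window and is no evidence of binding.

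At 500 against 20 µg/mL of Soshiho-tang, 30 of the 42 genes were higher and 2 lower (edgeR, adjusted p under 0.05), where 14.6% of the 16872 genes tested were higher and 14.2% were lower. The median log2 change was 0.26 over the members and 0.01 over all genes tested. The members, and the other pathway genes given next, were chosen with earlier results of these data known. Of 142 other genes of the same pathways tested for Soshiho-tang, described further on, 32.4% were higher and 8.45% lower. By role, the counts higher were 6 of 6 V-ATPase genes, 8 of 9 enzymes, 5 of 6 membrane and lipid transport genes, 5 of 8 TFE family and regulator genes and 6 of 13 autophagy genes, and MITF and ATG9A were the 2 lower. Okbyeongpung-san gave 15 higher and 1 lower (5.21% and 5.10% of 16643 genes), with a member median of 0.21 against 0.00 over all genes. Of its 15, 4 were V-ATPase genes, 4 autophagy genes, 3 enzymes, 3 TFE family regulators and 1 a lipid transporter, and MITF was again the gene that was lower. Yijin-tang gave 2 higher and 2 lower, where 5.64% of the 16872 genes were called in either direction, with a member median of -0.06 against 0.00 over all genes. The Yijin-tang count of 4 was 2 without its 20 µg/mL replicate 1 or replicate 2.

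Among these calls, 13 genes were higher with both Soshiho-tang and Okbyeongpung-san, 17 were called higher with Soshiho-tang alone and 2 with Okbyeongpung-san alone, namely GABARAPL1 and GABARAPL2. Of the 16496 genes tested in both, 2.69% were higher with both, 12.1% with Soshiho-tang alone and 2.50% with Okbyeongpung-san alone. A call in one extract and not in the other does not show that they differ, and tests of the difference are given further on. Okbyeongpung-san rests on 2 libraries per concentration, whose titles name batch E for replicate 2 and batch D for replicate 3. All 16 of its called members moved in the same direction within both batches. Their libraries did not overlap between the concentrations, so that outcome was fixed in advance and is no separate check. The count of 16 was 9 without the 500 µg/mL replicate 2, 9 without the 20 µg/mL replicate 2 and 10 without the 20 µg/mL replicate 3. It was 22 in the fit of 27 libraries. A pair of libraries stood apart from the others of their group, Soshiho-tang 20 µg/mL replicate 3 and Yijin-tang 500 µg/mL replicate 3. Without the Soshiho-tang library 31 members were called for that extract at 500 against 20 µg/mL, and without the Yijin-tang library 6 were called for Yijin-tang. Levels are given as CPM, counts scaled to the TMM-adjusted library size, and each change is on the log2 scale, written with its standard error (SE). In such bulk libraries fewer cells of a kind and less RNA per cell cannot be told apart.

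**Figure D1:**
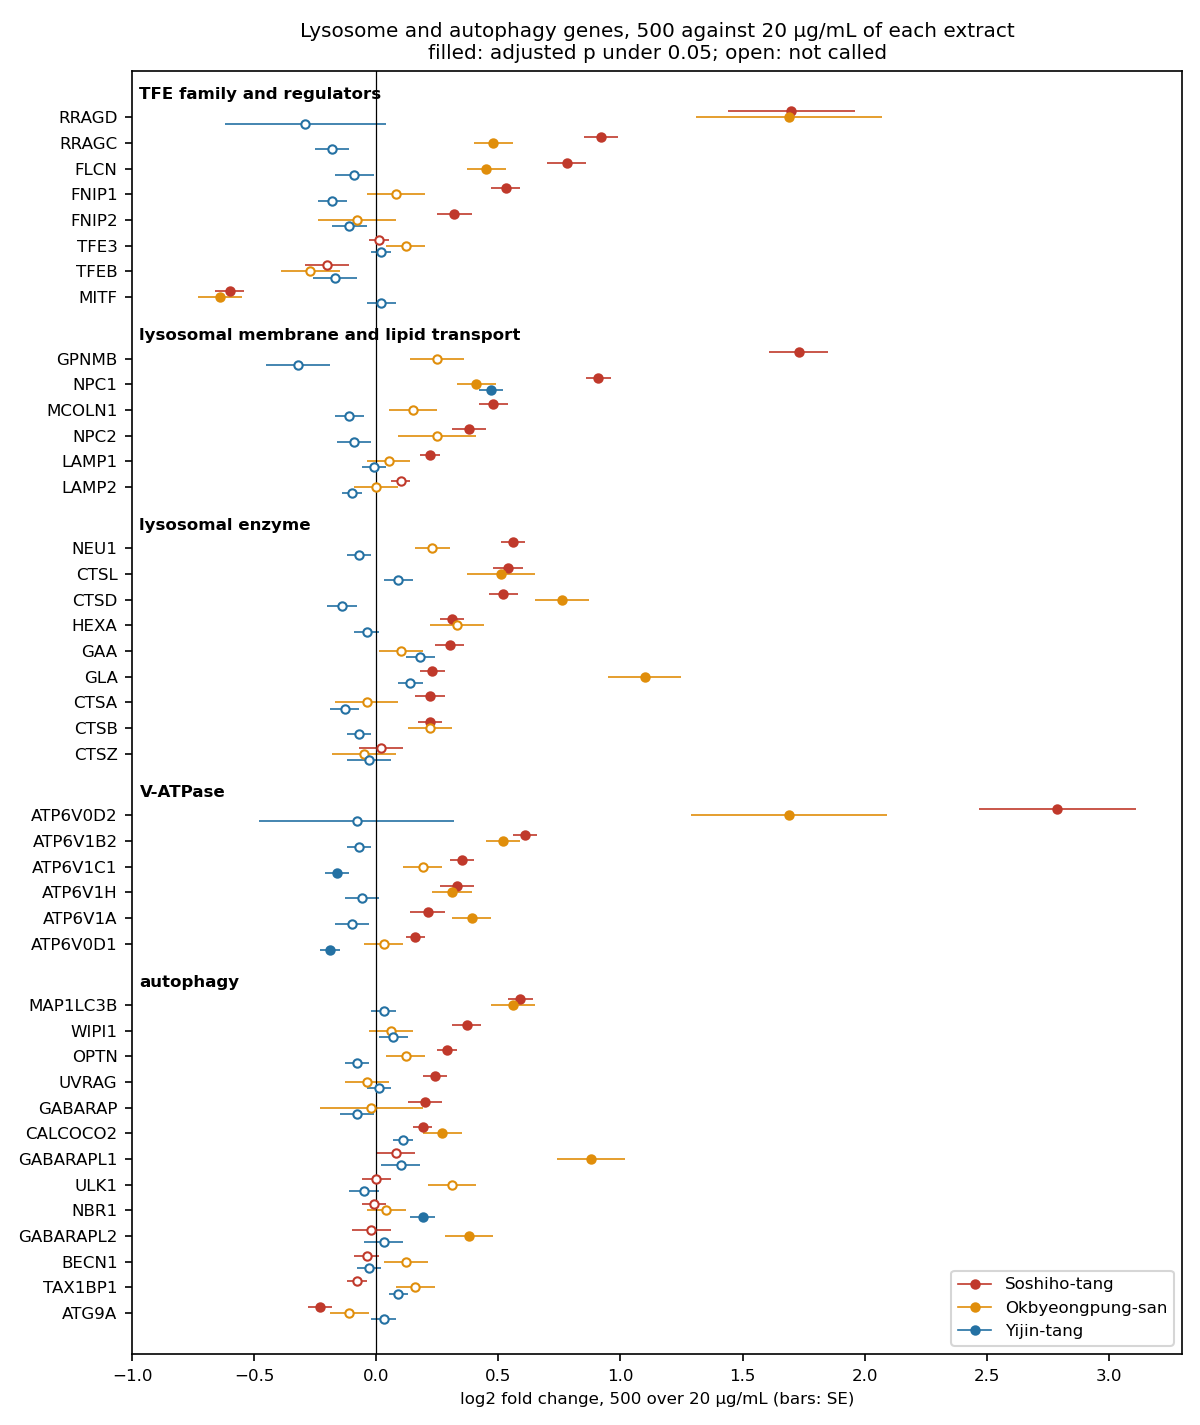
Log2 fold change of each of the 42 genes at 500 over 20 µg/mL, grouped by role, for Soshiho-tang, Okbyeongpung-san and Yijin-tang, with bars for the SE; filled points have an adjusted p under 0.05. ATP6V0D2 (2.79), GPNMB (1.73) and RRAGD (1.70) lie farthest to the right with Soshiho-tang, and MITF lies to the left with Soshiho-tang (-0.60) and Okbyeongpung-san (-0.64).

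Of the TFE factors, MITF, the one that also directs pigment cell genes, fell with Soshiho-tang and Okbyeongpung-san. The changes of TFEB and TFE3 did not pass the test at 500 against 20 µg/mL of any replicated extract. MITF stood at 20.2, 18.4 and 21.3 CPM at 500 µg/mL of Soshiho-tang, against 31.2, 30.7 and 29.1 CPM at 20 µg/mL. With Okbyeongpung-san it stood at 20.2 and 19.7 CPM at 500 µg/mL, against 33.5 and 28.6 CPM at 20 µg/mL. With Yijin-tang it stood at 30.0, 28.9 and 29.9 CPM at 500 µg/mL, against 28.0, 30.8 and 28.2 CPM at 20 µg/mL. The libraries at both concentrations did not overlap for Soshiho-tang (-0.60 ± 0.06, adjusted p = 5.53e-08) and Okbyeongpung-san (-0.64 ± 0.09, adjusted p = 0.00258), and they overlapped for Yijin-tang (0.02 ± 0.06, adjusted p = 0.883).

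TFEB, the factor best known for lysosome formation, was the lowest of the 3 per kilobase of exon in vehicle (2.39 CPM per kb, against 3.61 for MITF and 37.2 for TFE3). It stood at 8.91, 10.0 and 8.34 CPM at 500 µg/mL of Soshiho-tang, against 10.2, 11.3 and 9.82 CPM at 20 µg/mL (-0.20 ± 0.09, adjusted p = 0.119). With Okbyeongpung-san TFEB stood at 7.92 and 8.34 CPM at 500 µg/mL, against 9.26 and 10.2 CPM at 20 µg/mL (-0.27 ± 0.12, adjusted p = 0.194). Yijin-tang libraries held 10.1, 10.4 and 9.06 CPM of TFEB at 500 µg/mL, against 10.5, 10.0 and 12.6 CPM at 20 µg/mL (-0.17 ± 0.09, adjusted p = 0.349). All of these lay below the vehicle libraries, which held 14.2, 12.4 and 14.0 CPM, except the highest library of Yijin-tang at 20 µg/mL. TFE3, the most abundant factor of the family per kilobase, stood at 157, 153 and 150 CPM at 500 µg/mL of Soshiho-tang, against 149, 151 and 156 CPM at 20 µg/mL. It stood at 153 and 169 CPM at 500 µg/mL of Okbyeongpung-san, against 141 and 156 CPM at 20 µg/mL, and Yijin-tang libraries held 154, 153 and 161 CPM at 500 µg/mL, against 154, 153 and 154 CPM at 20 µg/mL. The groups overlapped in every extract, and the TFE3 changes were 0.01 ± 0.04 for Soshiho-tang, 0.12 ± 0.08 for Okbyeongpung-san and 0.02 ± 0.04 for Yijin-tang.

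All 5 members of the Rag and folliculin branch, RRAGC, RRAGD, FLCN, FNIP1 and FNIP2, rose with Soshiho-tang. The partner genes outside the members are RRAGB, which rose (0.34 ± 0.08), and RRAGA, at 0.19 ± 0.08, which was not called (adjusted p = 0.0872). RRAGC (chr1:38838198-38859823, minus strand), a Rag GTPase subunit, stood at 111, 117 and 120 CPM at 500 µg/mL of Soshiho-tang, against 63.0, 63.1 and 58.0 CPM at 20 µg/mL. Okbyeongpung-san libraries held 76.6 and 81.5 CPM at 500 µg/mL, against 57.8 and 55.4 CPM at 20 µg/mL. In Yijin-tang libraries RRAGC was at 57.8, 51.6 and 46.4 CPM at 500 µg/mL, against 59.1, 55.3 and 61.5 CPM at 20 µg/mL. The concentrations were apart for Soshiho-tang (0.92 ± 0.07, adjusted p = 1.78e-09) and Okbyeongpung-san (0.48 ± 0.08, adjusted p = 0.00396) and overlapped for Yijin-tang (-0.18 ± 0.07, adjusted p = 0.176).

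RRAGD, the paralog that pairs with RRAGA or RRAGB in the same way, was rare, so its counts are given. It had 57, 57 and 46 counts at 500 µg/mL of Soshiho-tang (1.85, 1.94 and 1.69 CPM), against 9, 19 and 21 counts at 20 µg/mL (0.334, 0.569 and 0.784 CPM). With Okbyeongpung-san it had 27 and 28 counts at 500 µg/mL, against 6 and 12 counts at 20 µg/mL, and Yijin-tang libraries had 19, 10 and 7 counts at 500 µg/mL, against 12, 12 and 15 counts at 20 µg/mL. Every 500 µg/mL library of Soshiho-tang (1.70 ± 0.26, adjusted p = 3.43e-05) and of Okbyeongpung-san (1.69 ± 0.38, adjusted p = 0.0209) was above its 20 µg/mL libraries. The call with Okbyeongpung-san was lost with DESeq2 (adjusted p = 0.0977) and without the 500 µg/mL replicate 2, the 500 µg/mL replicate 3 or the 20 µg/mL replicate 2 (adjusted p from 0.0543 to 0.153). Yijin-tang groups overlapped (-0.29 ± 0.33, adjusted p = 0.728).

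FLCN (chr17:17212212-17237188, minus strand), the folliculin gene, stood at 59.4, 62.9 and 66.1 CPM at 500 µg/mL of Soshiho-tang, against 38.1, 38.6 and 33.0 CPM at 20 µg/mL. With Okbyeongpung-san it stood at 46.6 and 47.7 CPM at 500 µg/mL, against 35.6 and 33.3 CPM at 20 µg/mL. Yijin-tang libraries held 34.7, 33.8 and 27.4 CPM of FLCN at 500 µg/mL, against 35.1, 33.4 and 32.9 CPM at 20 µg/mL. It rose with Soshiho-tang (0.78 ± 0.08, adjusted p = 1.35e-07) and Okbyeongpung-san (0.45 ± 0.08, adjusted p = 0.00798), with no overlap between concentrations, and not with Yijin-tang (-0.09 ± 0.08, adjusted p = 0.656). FLCN lies across from MPRIP on the opposite strand, a gene with a median of 11587 counts that was lower at 500 µg/mL of Soshiho-tang (-0.37 ± 0.05), and the strand setting of the counting is not given in the sources used here.

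FNIP1, a folliculin partner, stood at 105, 98.8 and 96.0 CPM at 500 µg/mL of Soshiho-tang, against 66.9, 72.6 and 68.6 CPM at 20 µg/mL. Okbyeongpung-san libraries held 78.5 and 68.8 CPM at 500 µg/mL, against 74.6 and 64.2 CPM at 20 µg/mL. Yijin-tang libraries held 55.0, 56.6 and 62.3 CPM of FNIP1 at 500 µg/mL, against 66.7, 65.8 and 63.8 CPM at 20 µg/mL. Its rise passed the test with Soshiho-tang (0.53 ± 0.06, adjusted p = 2.32e-07), while the changes with Okbyeongpung-san (0.08 ± 0.12, adjusted p = 0.713) and Yijin-tang (-0.18 ± 0.06, adjusted p = 0.0706) did not pass. Within batches, FNIP1 changed with Okbyeongpung-san by 0.07 in batch E and 0.10 in batch D, on the scale of log2(CPM + 1). FNIP2, the other partner, rose with Soshiho-tang (0.32 ± 0.07, adjusted p = 0.00126), and its changes were -0.08 ± 0.16 with Okbyeongpung-san and -0.11 ± 0.07 with Yijin-tang, neither past the test.

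**Figure D2:**
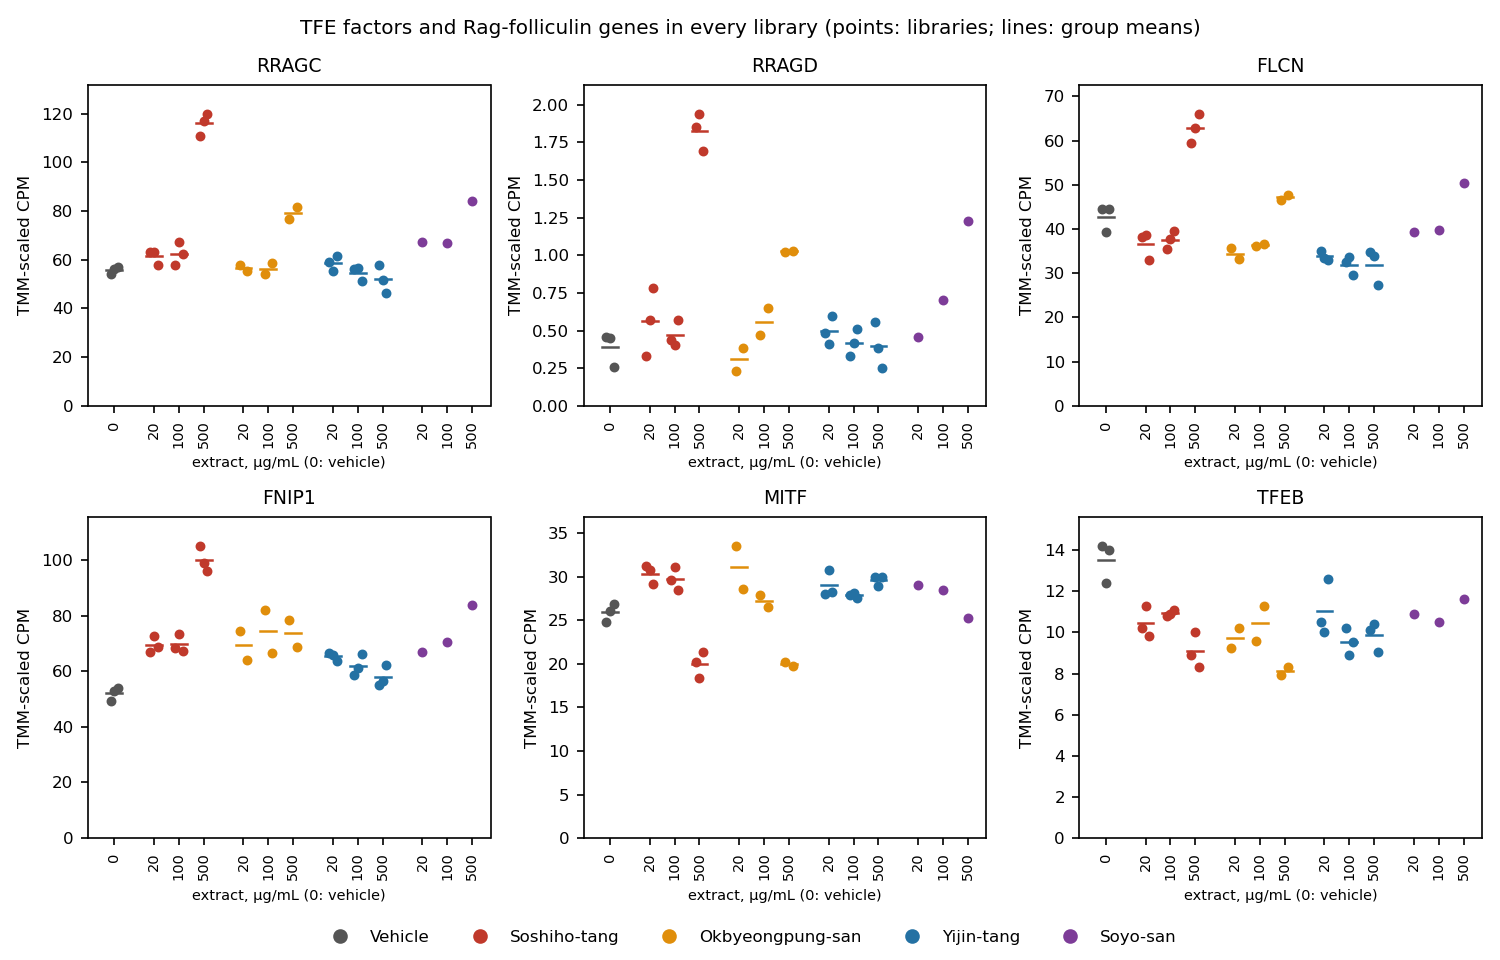
TMM-scaled CPM of RRAGC, RRAGD, FLCN, FNIP1, MITF and TFEB in each of the 30 libraries, by extract and concentration (0 is vehicle); points are libraries and lines are group means. RRAGC, RRAGD, FLCN and FNIP1 stand highest at 500 µg/mL of Soshiho-tang, and MITF is low at 500 µg/mL of Soshiho-tang and Okbyeongpung-san.

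Each of the 6 V-ATPase genes rose with Soshiho-tang. ATP6V0D2, a variant of subunit d known from osteoclasts and macrophages, had 77, 64 and 57 counts at 500 µg/mL of Soshiho-tang (2.50, 2.18 and 2.10 CPM), against 3, 9 and 16 counts at 20 µg/mL (0.111, 0.270 and 0.598 CPM). With Okbyeongpung-san it had 28 and 33 counts at 500 µg/mL, against 7 and 13 counts at 20 µg/mL, and Yijin-tang libraries had 16, 8 and 10 counts at 500 µg/mL, against 10, 13 and 9 counts at 20 µg/mL. The change was 2.79 ± 0.32 with Soshiho-tang (adjusted p = 7.42e-07; 3.49 ± 0.35 without the 20 µg/mL replicate 3), 1.69 ± 0.40 with Okbyeongpung-san (adjusted p = 0.0248) and -0.08 ± 0.40 with Yijin-tang (adjusted p = 0.955). In vehicle its level was far below that of the ubiquitous subunit ATP6V0D1, by exon length 0.0688 against 11.3 CPM per kb. At 500 µg/mL of Soshiho-tang it was still below, at 2.50, 2.18 and 2.10 CPM against 94.7, 98.3 and 94.7 CPM, not scaled by exon length. With DESeq2 the Okbyeongpung-san call was lost (adjusted p = 0.122), as it was without any 1 of the 4 libraries compared (adjusted p from 0.0606 to 0.173).

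Of the 4 osteoclast markers set beside it, OSCAR alone passed the low-count filter, with changes of 1.19 for Soshiho-tang and 1.09 for Okbyeongpung-san that were not called. Their summed level was 0.442 to 0.887 CPM at 500 µg/mL of Soshiho-tang, against 0.260 to 0.390 CPM at 20 µg/mL. For Okbyeongpung-san it was 0.625 to 0.679 CPM at 500 µg/mL, against 0.228 to 0.451 CPM at 20 µg/mL, and CALCR and DCSTAMP each had no count in 22 of the 30 libraries. The 7 macrophage and leukocyte markers summed to 6.66 to 7.35 CPM at 500 µg/mL of Soshiho-tang, against 15.6 to 16.3 CPM at 20 µg/mL. Of these markers 2 of 3 tested were lower, and TYROBP was at 0 throughout. The sum was also lower at 500 µg/mL of Okbyeongpung-san (9.42 to 10.6 against 13 to 16.1 CPM) and of Yijin-tang (11.2 to 12.1 against 14.9 to 16.3 CPM). PTPRC was called lower with all 3 extracts. The part of these marker lists in the result was not tested.

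ATP6V1B2, the B subunit of the ATP-splitting head, stood at 132, 132 and 139 CPM at 500 µg/mL of Soshiho-tang, against 93.0, 87.9 and 84.6 CPM at 20 µg/mL (0.61 ± 0.05, adjusted p = 3.48e-09). With Okbyeongpung-san it stood at 127 and 121 CPM at 500 µg/mL, against 87.4 and 85.4 CPM at 20 µg/mL (0.52 ± 0.07, adjusted p = 0.00174). The concentrations were far apart in both extracts, whereas Yijin-tang libraries held 82.1, 82.9 and 75.5 CPM at 500 µg/mL, against 84.7, 81.4 and 85.8 CPM at 20 µg/mL (-0.07 ± 0.05). ATP6V1C1, the C subunit that joins head and membrane part, stood at 138, 131 and 131 CPM at 500 µg/mL of Soshiho-tang, against 107, 104 and 105 CPM at 20 µg/mL (0.35 ± 0.05). With Yijin-tang it was lower, at 86.6, 89.4 and 96.5 CPM at 500 µg/mL, against 102, 102 and 99.4 CPM at 20 µg/mL (-0.16 ± 0.05, adjusted p = 0.0416). That call was lost in 8 of 11 alternatives, among them without each of the Yijin-tang libraries compared but the 500 µg/mL replicate 3 (adjusted p from 0.0712 to 0.188). The change with Okbyeongpung-san, 0.19 ± 0.08, did not pass.

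ATP6V0D1, the common d subunit, moved in opposite directions with the 2 extracts that share a library set. It stood at 94.7, 98.3 and 94.7 CPM at 500 µg/mL of Soshiho-tang, against 86.5, 85.3 and 85.9 CPM at 20 µg/mL (0.16 ± 0.04, adjusted p = 0.00246). Yijin-tang libraries held 76.2, 77.9 and 79.0 CPM at 500 µg/mL, against 89.3, 85.3 and 90.5 CPM at 20 µg/mL (-0.19 ± 0.04, adjusted p = 0.00338). No library overlapped within either extract, and without the low-count filter both calls were lost, at adjusted p = 0.0604 and 0.0705. ATP6V1A, the catalytic A subunit, rose with Okbyeongpung-san (0.39 ± 0.08, adjusted p = 0.0135) and Soshiho-tang (0.21 ± 0.07, adjusted p = 0.0321), and ATP6V1H rose with both (0.31 ± 0.08 and 0.33 ± 0.07 in the same order). Both Okbyeongpung-san calls were lost without the 500 µg/mL replicate 2 or either 20 µg/mL library, and the Soshiho-tang call of ATP6V1A without the 20 µg/mL replicate 1, the 20 µg/mL replicate 3 or the 500 µg/mL replicate 3.

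Among lysosomal membrane and lipid transport genes, GPNMB and NPC1 had the largest rises with Soshiho-tang. GPNMB, a transmembrane glycoprotein of lysosomes and melanosomes, stood at 30.3, 33.4 and 27.7 CPM at 500 µg/mL of Soshiho-tang, against 7.87, 8.81 and 11 CPM at 20 µg/mL. Okbyeongpung-san libraries held 13.4 and 13.7 CPM at 500 µg/mL, against 11.4 and 11.4 CPM at 20 µg/mL, and Yijin-tang libraries held 7.67, 6.36 and 9.71 CPM at 500 µg/mL, against 9.11, 9.96 and 10.5 CPM at 20 µg/mL. The rise was 3.31-fold with Soshiho-tang (1.73 ± 0.12, adjusted p = 2.48e-10), and the changes with Okbyeongpung-san (0.25 ± 0.11, adjusted p = 0.195) and Yijin-tang (-0.32 ± 0.13, adjusted p = 0.168) were not called. Without the Yijin-tang 500 µg/mL replicate 3, a library that stands apart from its group, the Yijin-tang change was -0.48 and was called (adjusted p = 0.0295).

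The 5 pigment cell markers, set beside MITF and GPNMB, summed to 1.91 to 2.50 CPM at 500 µg/mL of Soshiho-tang, against 3.92 to 4.64 CPM at 20 µg/mL. With Okbyeongpung-san they summed to 3.21 to 3.27 CPM at 500 µg/mL, against 4.16 to 5.27 CPM at 20 µg/mL. TYRP1 was the marker that fell in both extracts, 1 of 2 tested with Soshiho-tang and 1 of 3 tested with Okbyeongpung-san, and TYR had no count in any library. Their part in the changes of MITF and GPNMB was not tested.

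NPC1, which moves cholesterol out of the lysosome, was the one member higher with all 3 replicated extracts. It stood at 413, 421 and 410 CPM at 500 µg/mL of Soshiho-tang, against 220, 228 and 215 CPM at 20 µg/mL (0.91 ± 0.05, adjusted p = 2.95e-11). With Yijin-tang it stood at 325, 316 and 314 CPM at 500 µg/mL, against 230, 241 and 215 CPM at 20 µg/mL (0.47 ± 0.05, adjusted p = 9.66e-06). With Okbyeongpung-san it stood at 305 and 304 CPM at 500 µg/mL, against 241 and 214 CPM at 20 µg/mL (0.41 ± 0.08, adjusted p = 0.00943, and 0.0551 without the 20 µg/mL replicate 3). No 500 µg/mL library reached down to its 20 µg/mL libraries, and NPC1 alone among the 4 Yijin-tang calls held under every alternative tried. RMC1, which overlaps NPC1 on the opposite strand, had a median of 551 counts and rose less with Soshiho-tang (0.28 ± 0.06).

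LAMP1, an abundant glycoprotein that lines the lysosomal membrane, stood at 507, 547 and 551 CPM at 500 µg/mL of Soshiho-tang, against 458, 470 and 449 CPM at 20 µg/mL (0.22 ± 0.04, adjusted p = 0.000657). With Okbyeongpung-san LAMP1 stood at 448 and 523 CPM at 500 µg/mL, against 454 and 480 CPM at 20 µg/mL, and Yijin-tang libraries held 484, 455 and 453 CPM at 500 µg/mL, against 464, 448 and 482 CPM at 20 µg/mL. The groups of these 2 extracts overlapped, and neither change passed the test (0.05 ± 0.09 and -0.01 ± 0.05 in that order). MCOLN1, the calcium channel of the lysosomal membrane, rose with Soshiho-tang (0.48 ± 0.06, adjusted p = 3.09e-06), as did NPC2, the soluble partner of NPC1 (0.38 ± 0.07, adjusted p = 0.00012), whereas LAMP2 changed by 0.10 ± 0.04 (adjusted p = 0.0568). With Okbyeongpung-san these 3 changed by 0.15 ± 0.10, 0.25 ± 0.16 and -0.00 ± 0.09, none of them past the test. PNPLA6, which overlaps MCOLN1 on the same strand, had a median of 2659.5 counts and was lower with Soshiho-tang (-0.16 ± 0.06, adjusted p = 0.0497). Whether the 2 genes share reads was not tested.

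Of the lysosomal enzymes, CTSD, CTSL and GLA rose with both extracts, and GLA rose most with Okbyeongpung-san. CTSD (chr11:1752752-1764573, minus strand), the aspartic protease cathepsin D, stood at 357, 352 and 333 CPM at 500 µg/mL of Soshiho-tang, against 247, 231 and 250 CPM at 20 µg/mL (0.52 ± 0.06, adjusted p = 2.31e-07). Okbyeongpung-san libraries held 389 and 464 CPM at 500 µg/mL, against 230 and 273 CPM at 20 µg/mL (0.76 ± 0.11, adjusted p = 0.0026). Yijin-tang libraries held 242, 238 and 232 CPM of CTSD at 500 µg/mL, against 251, 263 and 265 CPM at 20 µg/mL (-0.14 ± 0.06, adjusted p = 0.175). Within batches the Okbyeongpung-san change was 0.75 in batch E and 0.76 in batch D, although batch D stood higher at both concentrations.

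GLA (chrX:101397803-101408012, minus strand), the alpha-galactosidase that is deficient in Fabry disease, stood at 99.0 and 114 CPM at 500 µg/mL of Okbyeongpung-san, against 42.7 and 56.1 CPM at 20 µg/mL (1.10 ± 0.15, adjusted p = 0.00161). With Soshiho-tang it stood at 59.1, 61.6 and 61.6 CPM at 500 µg/mL, against 50.6, 51.7 and 52.8 CPM at 20 µg/mL (0.23 ± 0.05, adjusted p = 0.0016). Yijin-tang libraries held 59.6, 62.1 and 57.3 CPM at 500 µg/mL, against 55.1, 54.0 and 52.7 CPM at 20 µg/mL (0.14 ± 0.05, adjusted p = 0.135). All 3 extracts had 500 µg/mL libraries above their 20 µg/mL libraries, by 2.15-fold with Okbyeongpung-san and 1.18-fold with Soshiho-tang.

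NEU1, a sialidase held active in a complex with CTSA, stood at 199, 197 and 186 CPM at 500 µg/mL of Soshiho-tang, against 137, 128 and 130 CPM at 20 µg/mL (0.56 ± 0.05, adjusted p = 2.79e-08). With Okbyeongpung-san it stood at 157 and 158 CPM at 500 µg/mL, against 129 and 139 CPM at 20 µg/mL (0.23 ± 0.07, adjusted p = 0.0731). Yijin-tang libraries held 128, 138 and 124 CPM of NEU1 at 500 µg/mL, against 134, 129 and 145 CPM at 20 µg/mL (-0.07 ± 0.05). Soshiho-tang and Okbyeongpung-san libraries were thus separated by concentration and Yijin-tang libraries were not. CTSL, a cysteine protease, stood at 208, 218 and 208 CPM at 500 µg/mL of Soshiho-tang, against 138, 139 and 160 CPM at 20 µg/mL (0.54 ± 0.06, adjusted p = 2.41e-07). With Okbyeongpung-san CTSL stood at 201 and 231 CPM at 500 µg/mL, against 134 and 168 CPM at 20 µg/mL (0.51 ± 0.14, adjusted p = 0.0499), a call lost without the 500 µg/mL replicate 2, the 500 µg/mL replicate 3 or the 20 µg/mL replicate 2. The other enzymes called with Soshiho-tang were HEXA, GAA, CTSA and CTSB, with changes from 0.22 to 0.31, and CTSZ changed by 0.02 ± 0.09.

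**Figure D3:**
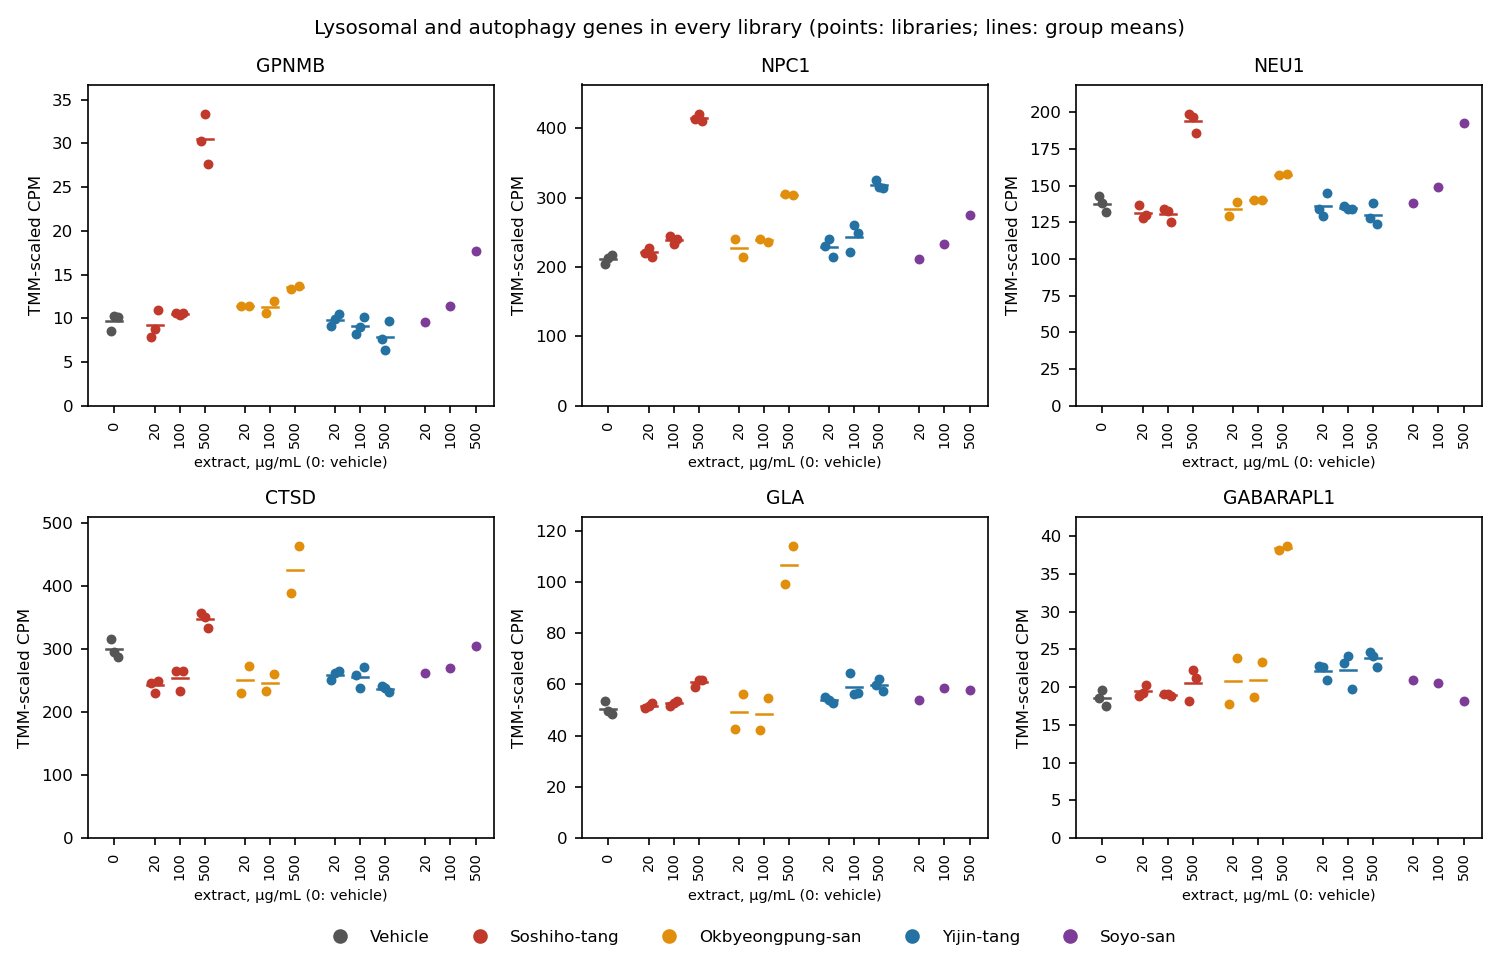
TMM-scaled CPM of GPNMB, NPC1, NEU1, CTSD, GLA and GABARAPL1 in each of the 30 libraries, by extract and concentration (0 is vehicle); points are libraries and lines are group means. GPNMB, NPC1 and NEU1 stand highest at 500 µg/mL of Soshiho-tang, and CTSD, GLA and GABARAPL1 stand highest at 500 µg/mL of Okbyeongpung-san.

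Of the 13 autophagy genes, 7 were called with Soshiho-tang, 4 with Okbyeongpung-san and 1 with Yijin-tang, among them genes of the family that is attached to the autophagic membrane. MAP1LC3B, the LC3 gene, stood at 134, 137 and 127 CPM at 500 µg/mL of Soshiho-tang, against 89.5, 85.2 and 89.6 CPM at 20 µg/mL (0.59 ± 0.05, adjusted p = 4.4e-09). Okbyeongpung-san libraries held 137 and 120 CPM at 500 µg/mL, against 85.6 and 87.9 CPM at 20 µg/mL (0.56 ± 0.09, adjusted p = 0.00328). The concentrations were well apart in both, while Yijin-tang libraries held 93.1, 92.1 and 93.9 CPM at 500 µg/mL, against 93.6, 87.0 and 91.3 CPM at 20 µg/mL (0.03 ± 0.05). FBXO31, on the opposite strand across MAP1LC3B, had a median of 937.5 counts and rose by 0.21 ± 0.05 with Soshiho-tang. MAP1LC3B2, a near-identical gene that could share its reads, had a median of 8 counts.

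GABARAPL1, a relative of LC3, stood at 38.2 and 38.7 CPM at 500 µg/mL of Okbyeongpung-san, against 17.8 and 23.8 CPM at 20 µg/mL (0.88 ± 0.14, adjusted p = 0.00384). With Soshiho-tang it stood at 18.2, 22.3 and 21.2 CPM at 500 µg/mL, against 18.8, 19.2 and 20.3 CPM at 20 µg/mL (0.08 ± 0.08, adjusted p = 0.481). Yijin-tang libraries held 24.7, 24.1 and 22.7 CPM at 500 µg/mL, against 22.8, 22.7 and 21 CPM at 20 µg/mL (0.10 ± 0.08, adjusted p = 0.536). Only the Okbyeongpung-san groups of these 3 were free of overlap. GABARAPL2 also rose with Okbyeongpung-san (0.38 ± 0.10, adjusted p = 0.0359) and changed by -0.02 ± 0.08 with Soshiho-tang. That rise was lost without the 500 µg/mL replicate 2 or either 20 µg/mL library. GABARAP rose with Soshiho-tang by 0.20 ± 0.07 (adjusted p = 0.0414), a call lost in 6 of the 11 alternatives tried, 5 of which left out one of the libraries compared other than the 20 µg/mL replicate 3.

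BECN1, the Beclin gene of the kinase complex that starts autophagosomes, stood at 61.0, 62.7 and 65.9 CPM at 500 µg/mL of Soshiho-tang, against 63.9, 67.4 and 63.5 CPM at 20 µg/mL (-0.04 ± 0.05, adjusted p = 0.65). With Okbyeongpung-san BECN1 stood at 66.1 and 71.0 CPM at 500 µg/mL, against 59.5 and 66.6 CPM at 20 µg/mL (0.12 ± 0.09), and Yijin-tang libraries held 67.5, 70.0 and 64.9 CPM at 500 µg/mL, against 68.8, 65.5 and 70.8 CPM at 20 µg/mL (-0.03 ± 0.05). Its groups overlapped in all 3 extracts. Among the cargo receptors, OPTN (0.29 ± 0.04) and CALCOCO2 (0.19 ± 0.04) rose with Soshiho-tang, and CALCOCO2 rose with Okbyeongpung-san (0.27 ± 0.08, adjusted p = 0.0496), which missed the threshold with the batches as a block (adjusted p = 0.0574) and in 6 other alternatives. NBR1, another receptor, stood at 141, 140 and 143 CPM at 500 µg/mL of Yijin-tang, against 121, 122 and 128 CPM at 20 µg/mL (0.19 ± 0.05, adjusted p = 0.0175), a call lost without the 500 µg/mL replicate 1, the 20 µg/mL replicate 1 or the 20 µg/mL replicate 2. With Soshiho-tang it stood at 120, 124 and 122 CPM at 500 µg/mL against 123, 123 and 122 CPM at 20 µg/mL, and with Okbyeongpung-san it stood at 134 and 129 CPM, against 129 and 127 CPM. WIPI1 (0.37 ± 0.06) and UVRAG (0.24 ± 0.05), both of early autophagosome steps, rose with Soshiho-tang, the lipid scramblase gene ATG9A fell (-0.23 ± 0.05, adjusted p = 0.00135), and the kinase gene ULK1 (0.00 ± 0.06) and the receptor gene TAX1BP1 (-0.08 ± 0.04) were not called.

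No member was called at 100 against 20 µg/mL in any extract with edgeR or DESeq2. Of all genes tested, 0.0711% were called for Soshiho-tang, 0.00593% for Yijin-tang and 0% for Okbyeongpung-san. At an unadjusted p under 0.05 there were 2 members for Soshiho-tang (4.76%, against 3.66% of all genes), 3 for Yijin-tang (7.14%, against 3.66%) and 0 for Okbyeongpung-san (against 0.925%). The 3 concentrations of RRAGC with Soshiho-tang held 63.0, 63.1 and 58.0 CPM at 20 µg/mL, 57.7, 67.3 and 62.2 CPM at 100 µg/mL and 111, 117 and 120 CPM at 500 µg/mL. GPNMB with Soshiho-tang held 7.87, 8.81 and 11 CPM at 20 µg/mL, 10.6, 10.4 and 10.6 CPM at 100 µg/mL and 30.3, 33.4 and 27.7 CPM at 500 µg/mL. In both genes the libraries at 20 and 100 µg/mL overlapped and the libraries at 500 µg/mL stood clear of them.

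Soshiho-tang and Yijin-tang, which belong to one library set and have 3 libraries each, were compared directly. At 500 µg/mL 27 members were higher and 5 lower with Soshiho-tang than with Yijin-tang, where 12.5% and 12.8% of all genes tested were higher and lower. The member median was 0.25 against -0.00 over all genes. All 6 V-ATPase genes and all 6 membrane and lipid transport genes were higher, and the 5 lower were MITF, ATG9A, GABARAPL1, NBR1 and TAX1BP1. The differences were 2.54 ± 0.31 for ATP6V0D2, 2.16 ± 0.28 for RRAGD, 1.94 ± 0.12 for GPNMB and 1.15 ± 0.07 for RRAGC. For FLCN the difference was 0.97 ± 0.08, for FNIP1 0.78 ± 0.06, for ATP6V1B2 0.74 ± 0.05, for NEU1 0.57 ± 0.05 and for CTSD 0.55 ± 0.06, and for MITF it was -0.57 ± 0.06. These 10 adjusted p-values ran from 5.22e-11 for GPNMB to 3.11e-06 for RRAGD. The GABARAPL1 difference (-0.22 ± 0.08, adjusted p = 0.0398) was lost in 5 of the 11 alternatives, 4 of which left out the 500 µg/mL replicate 1 or 3 of Soshiho-tang or the 500 µg/mL replicate 1 or 2 of Yijin-tang.

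At 100 µg/mL the one member called was OPTN (0.20 ± 0.05, adjusted p = 0.0378), where 0.753% of all genes were called. It stood at 62.2, 66.3 and 61.5 CPM with Soshiho-tang, against 54.8, 56.8 and 54.5 CPM with Yijin-tang, and the call was lost when only these 2 groups were fitted, without the low-count filter, and without any 1 of these 6 libraries but the Yijin-tang replicate 2. At 20 µg/mL edgeR called 0 members (0.130% of all genes), as did DESeq2, and 6 members (14.3%) and 8.52% of all genes had an unadjusted p under 0.05. The change at 500 against 20 µg/mL was then compared between the 2 extracts in one model, which gave 27 members with a higher and 3 with a lower change for Soshiho-tang (6.63% and 6.99% of all genes). The 3 lower were MITF (-0.63 ± 0.08), ATG9A (-0.26 ± 0.07) and NBR1 (-0.20 ± 0.06). NPC1, called in both extracts, changed more with Soshiho-tang by 0.44 ± 0.08 (adjusted p = 0.000302).

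The same test set Okbyeongpung-san against Soshiho-tang, in a fit of 27 libraries. The changes differed for 9 members, 4 of them higher and 5 lower with Okbyeongpung-san, where 4.25% and 3.17% of all genes were. Higher with Okbyeongpung-san were GLA (0.88 ± 0.13, adjusted p = 0.000141), GABARAPL1 (0.80 ± 0.15, adjusted p = 0.00135), GABARAPL2 (0.40 ± 0.12, adjusted p = 0.0476) and TAX1BP1 (0.24 ± 0.07, adjusted p = 0.0415). Lower were GPNMB (-1.47 ± 0.18, adjusted p = 1.47e-05), NPC1 (-0.49 ± 0.09, adjusted p = 0.0012), FNIP1 (-0.44 ± 0.12, adjusted p = 0.0242), RRAGC (-0.43 ± 0.11, adjusted p = 0.0182) and NEU1 (-0.32 ± 0.08, adjusted p = 0.0175). GLA, GABARAPL1, GPNMB and NPC1 held under all 14 alternatives. The calls of RRAGC and NEU1 were lost in 2 of the 14, that of FNIP1 in 4, that of GABARAPL2 in 6 and that of TAX1BP1 in 9, and without the 20 µg/mL replicate 2 of Okbyeongpung-san 5 members were called. Within batches of Okbyeongpung-san the change on the scale of log2(CPM + 1) was 1.19 and 1.01 for GLA, 1.06 and 0.68 for GABARAPL1, and 0.22 and 0.25 for GPNMB, in batch E first and batch D after it, while all Soshiho-tang libraries carry batch E.

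For RRAGD (0.00, adjusted p = 1), MITF (-0.03 ± 0.10), MAP1LC3B (-0.03 ± 0.09) and CTSL (-0.02 ± 0.14) the difference was close to 0 beside its error, where it could be estimated. ATP6V0D2 differed by -1.10 ± 0.55 (adjusted p = 0.256), and without the 20 µg/mL replicate 3 of Soshiho-tang by -1.79 (adjusted p = 0.0396). MCOLN1 differed by -0.33 ± 0.10 (adjusted p = 0.0551), which passed with the replicate block (adjusted p = 0.0433). Against Yijin-tang, the change with Okbyeongpung-san was higher for 18 members and lower for MITF (5.59% and 5.11% of all genes), with GLA at 0.97 ± 0.13, CTSD at 0.90 ± 0.11, GABARAPL1 at 0.78 ± 0.15 and MITF at -0.66 ± 0.10. GPNMB, at 0.58 ± 0.19 (adjusted p = 0.0529), missed the threshold there and passed it with the replicate block (adjusted p = 0.0303), and ATP6V0D2, at 1.77 ± 0.57, passed it there and missed it with the block (adjusted p = 0.0526) and in 10 other alternatives. The count of 19 was 10 without the 20 µg/mL replicate 2 of Okbyeongpung-san and 12 without the 20 µg/mL replicate 3 of Yijin-tang. The comparisons share the libraries of each extract, so they are not independent of each other.

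**Figure D4:**
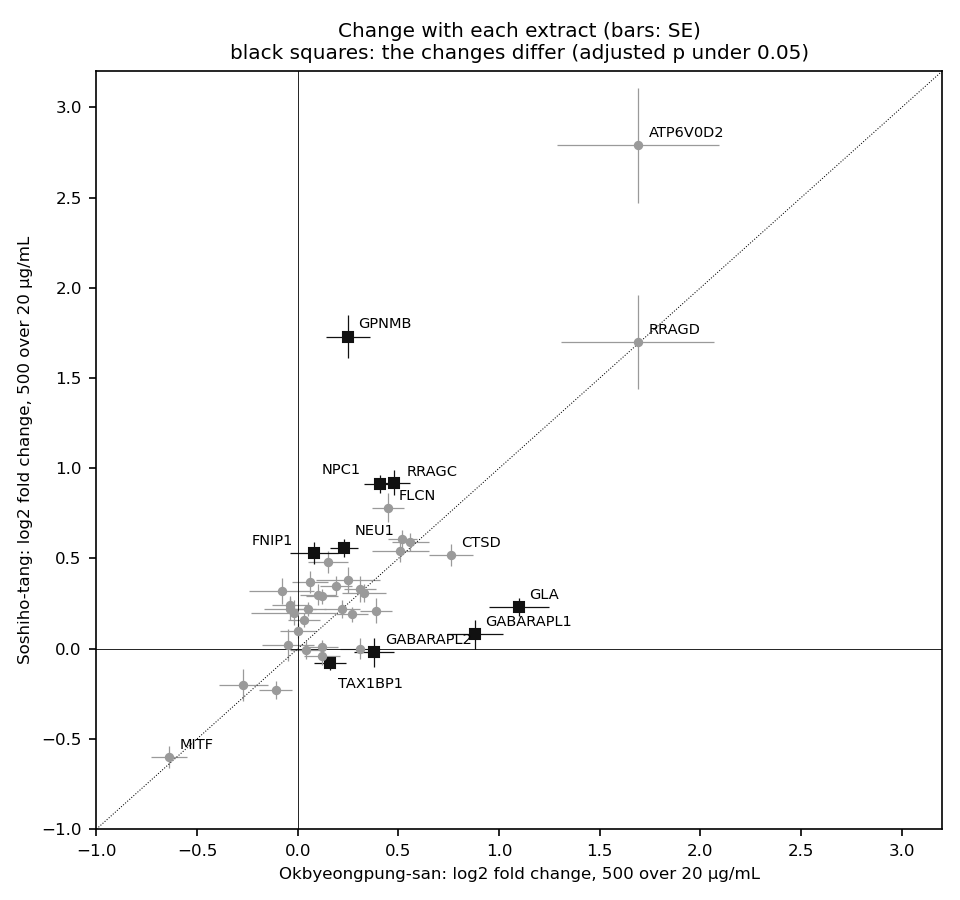
Log2 change at 500 over 20 µg/mL of each of the 42 genes with Okbyeongpung-san (horizontal) and Soshiho-tang (vertical), with bars for the SE; black squares mark the 9 genes whose changes differ at an adjusted p under 0.05. GPNMB, NPC1, RRAGC, FNIP1 and NEU1 lie above the dotted line of equal change, and GLA, GABARAPL1, GABARAPL2 and TAX1BP1 lie below it.

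The E-box core was set beside these calls as a description, and how it splits by call over all genes was not counted. With Soshiho-tang all 9 promoters that hold CACGTG were among the 21 of genes called higher, and it was in 0 of 2 promoters of genes called lower and 0 of 9 of genes not called. With Okbyeongpung-san it was in 2 of 10 promoters of genes called higher, those of CTSD and RRAGC, and in 7 of 21 of genes not called. TGACNNNGC was in 11 of the 21 called higher with Soshiho-tang, in 0 of 2 called lower and in 1 of 9 not called. With Okbyeongpung-san it was in 6 of the 10 called higher, in 0 of 1 called lower and in 6 of 21 not called. Its split by call over all genes was not counted either.

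Soyo-san had 1 library at each concentration, so its differences have no replicate check and no test. The log2 ratio of CPM + 1 at 500 over 20 µg/mL was above 0.3 for 10 members and below -0.3 for 0, where 5.41% and 4.90% of 17396 genes were past these limits. GPNMB was at 17.7 CPM at 500 µg/mL, against 9.58 CPM at 20 µg/mL, NEU1 at 193 against 138 CPM, NPC1 at 275 against 212 CPM and FLCN at 50.4 against 39.3 CPM. The other 6 were RRAGC, RRAGD, FNIP1, MCOLN1, ATP6V0D2 and ATP6V1B2, with RRAGD at 34 against 13 counts and ATP6V0D2 at 20 against 10 counts. These 10 were all among the 30 called higher with Soshiho-tang, and 6 of them were among the 15 called higher with Okbyeongpung-san. The same overlap over all genes was not counted, so these counts have no background to be set against. GLA, at 57.8 against 54.0 CPM, and GABARAPL1, at 18.2 against 20.9 CPM, were not among the 10.

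Against vehicle, whose 3 libraries carry batch E but form a set of their own by name, extract and library set cannot be told apart. Mitochondrial transcripts took 10.47% to 10.7% of the counts in vehicle and 5.68% to 10.61% in the other libraries. With these limits, Soshiho-tang at 500 µg/mL had 26 members higher and 4 lower (22.8% and 21.1% of all genes). Okbyeongpung-san had 21 and 2 (13.3% and 11.4%), and Yijin-tang 11 and 11 (16.0% and 15.2%). At 20 µg/mL Soshiho-tang had 4 members higher and 8 lower (11.3% and 10.5%), and Yijin-tang 8 and 5 (10.6% and 9.20%). The Yijin-tang count of 13 was 5 without vehicle replicate 1, vehicle replicate 3 or the Yijin-tang replicate 1, and 8 without the Yijin-tang replicate 3. For Okbyeongpung-san at 20 µg/mL edgeR called 0 members (1.18% and 1.06% of all genes), and DESeq2 called 1, while the edgeR fit of 27 libraries called 8. In the fit of 9 libraries an unadjusted p under 0.05 was reached by 9 members, 21.4% of the members, and by 21.7% of all genes. TFEB was lower than vehicle at 500 µg/mL of Soshiho-tang (-0.58 ± 0.09), Okbyeongpung-san (-0.72 ± 0.11) and Yijin-tang (-0.46 ± 0.09), and also at 20 µg/mL of Soshiho-tang (-0.38 ± 0.09) and Yijin-tang (-0.30 ± 0.09). FNIP1 was higher than vehicle at 20 µg/mL of Soshiho-tang (0.40 ± 0.06) and Yijin-tang (0.32 ± 0.06), and FLCN was lower in the same groups (-0.24 ± 0.08 and -0.34 ± 0.08).

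Beyond the members, 144 other genes of the same pathways were counted, of which 142 were tested for Soshiho-tang and Yijin-tang and 143 for Okbyeongpung-san. They too were listed with earlier results of these data known, so their shares are no independent check. With Soshiho-tang 46 were higher (32.4%, against 14.6% of all genes) and 12 lower (8.45%, against 14.2%). With Okbyeongpung-san 15 were higher (10.5%, against 5.21%) and 1 lower (0.699%, against 5.10%), and with Yijin-tang 2 were higher and 2 lower, where 5.64% of all genes were called in either direction. Membrane and sorting genes had 11 of 23 higher with Soshiho-tang, among them the cystine exporter gene CTNS (0.95 ± 0.06), the chloride exchanger gene CLCN7 (0.62 ± 0.07), TMEM192 (0.61 ± 0.06) and CLN3 (0.58 ± 0.06). CLCN7 also rose with Okbyeongpung-san (0.55 ± 0.08), and SORT1, a sorting receptor, fell with Okbyeongpung-san (-0.54 ± 0.09), Soshiho-tang (-0.25 ± 0.05) and Yijin-tang (-0.18 ± 0.05). Hydrolases and their activators had 13 of 36 higher and 3 lower with Soshiho-tang, led by ASAH1 (0.53 ± 0.05), CTSH (0.44 ± 0.06), SCPEP1 (0.40 ± 0.07) and GM2A (0.37 ± 0.04), and 3 higher with Okbyeongpung-san, SCPEP1 (0.87 ± 0.09), PSAP (0.54 ± 0.08) and ARSA (0.36 ± 0.09).

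Further autophagy machinery had 7 of 36 genes higher (19.4%) and 5 lower (13.9%) with Soshiho-tang, against 14.6% and 14.2% of all genes. The receptor SQSTM1 rose with Okbyeongpung-san (1.81 ± 0.08) and Soshiho-tang (1.53 ± 0.05), and the mitophagy receptor BNIP3 fell with Soshiho-tang (-1.04 ± 0.07) and rose with Okbyeongpung-san (0.32 ± 0.08), a pair of changes whose difference was not tested. BNIP3L fell (-0.62 ± 0.05) and ATG4C rose (0.44 ± 0.06) with Soshiho-tang. Of the other V-ATPase genes 5 of 17 tested were higher with Soshiho-tang, led by ATP6V1F (0.42 ± 0.11), and 4 of 18 with Okbyeongpung-san, led by ATP6V0B (0.72 ± 0.16) and ATP6V0E1 (0.61 ± 0.12), whereas TCIRG1, a subunit a gene, fell with Soshiho-tang (-0.39 ± 0.07). Of 30 tested genes of mTORC1 and nutrient sensing, 10 were higher with Soshiho-tang, with the leucine sensor SESN2 at 1.78 ± 0.05, and 2 were lower, SESN3 (-0.53 ± 0.13) and SESN1 (-0.25 ± 0.09). LAMTOR1 to LAMTOR5, the scaffold that holds the Rag GTPases on the lysosome, all rose with Soshiho-tang, by 0.27 to 0.31, and SESN2 rose with Okbyeongpung-san by 0.67 ± 0.08.

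The libraries held 23.9 to 33.1 M estimated counts in total. The cell line's glial markers GFAP and S100B reached at most 0.205 and 0.25 CPM and AQP4 at most 0.0703 CPM. VIM, CD44, SOX9 and NES were expressed in every library, NES at 4.66 to 16.1 CPM. At 500 against 20 µg/mL, SOX9, VIM and CD44 were lower and NES higher (0.45) with Soshiho-tang. With Okbyeongpung-san SOX9 was lower and NES higher (1.02), and with Yijin-tang SOX9 and VIM were lower. The labels do not say that libraries of one group came from separate cultures, so the p-values rest on a spread between libraries that may be technical alone.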

How the data were processed

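The deposited values are estimated counts per gene. The submitters' processing notes name FastQC 0.11.9, Trim Galore 0.6.5, STAR 2.7.3a, RSEM 1.3.3 and the builds hg38 and GRCh38, and libraries were directional, per the labels' protocols. The annotation release and strand setting are not given in the sources used here, and 30 blank columns were not used. Values were rounded to whole counts. Names and gene coordinates come from GENCODE 29 (57055 entries matched), and synonyms and promoters from RefSeq. The quasi-likelihood test of edgeR 4.0.16 (limma 3.58.1, R 4.3.3) used TMM scaling, filterByExpr (minimum count 10, total 15) and Benjamini-Hochberg adjustment over all genes. One fit held vehicle, Soshiho-tang and Yijin-tang (21 libraries), one vehicle and Okbyeongpung-san (9), and one all 3 extracts (27). The SE is the log2 change over the root of its F value. DESeq2 1.42.0 was an alternative. The code was tested on simulated data.

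The members, the lists and the rule for named genes were chosen with earlier results of these data known. The rule gives values per library for the called members with the largest changes (up to 10 per comparison, 5 for Yijin-tang at 500 against 20 µg/mL, with a mean of 1 CPM or more in the higher of both groups) and for TFEB, TFE3, MITF, FLCN, LAMP1, CTSD, MAP1LC3B and BECN1, and up to 4 called genes of each other list. FNIP2, ATP6V1A and further members are given by their changes. Replicate numbers of Okbyeongpung-san are the batches D and E of its titles, and deviations of same-numbered libraries correlated at 0.06 to 0.28. Pairs of libraries of one group differed by more than sampling noise (chi-square per degree of freedom 3.21 to 39.5 over 24 pairs). Within groups of 3, Yijin-tang 500 µg/mL replicate 3 (39.5 and 23.5, against 4.3 for the other pair) and Soshiho-tang 20 µg/mL replicate 3 (14.3 and 25.7, against 5.62) stood farthest apart.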

Additional observations from a re-analysis of the deposited data

Results flagged for a closer look

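Groups hold at most 3 libraries, too few for a search for single outlying libraries, so what is listed here is where the change at 500 against 20 µg/mL differed between extracts by a test of the difference itself (adjusted p under 0.05), for single genes where the difference was at least 0.5 on the log2 scale.

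Soshiho-tang differed from Yijin-tang in the change of 30 members. The regulators RRAGD (1.98), RRAGC (1.10), FLCN (0.86) and FNIP1 (0.71) changed more with Soshiho-tang, and MITF changed by -0.63 relative to Yijin-tang. The same held for the V-ATPase genes ATP6V0D2 (2.87), ATP6V1B2 (0.68) and ATP6V1C1 (0.51), for GPNMB (2.05) and MCOLN1 (0.60) in the membrane, for the enzymes CTSD (0.66) and NEU1 (0.63), and for MAP1LC3B (0.56).

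Okbyeongpung-san differed from Soshiho-tang in 9 members, by 0.88 for GLA, 0.80 for GABARAPL1 and -1.47 for GPNMB. It differed from Yijin-tang in 19 members, of which 9 were called under every alternative. The largest of the 19 were RRAGD (1.98), ATP6V0D2 (1.77), GLA (0.97), CTSD (0.90) and GABARAPL1 (0.78). RRAGD and ATP6V0D2 had few counts, and the ATP6V0D2 call missed the threshold with the replicate block and in other alternatives. RRAGC (0.66), ATP6V1B2 (0.59), FLCN (0.54), MAP1LC3B (0.53) and ATP6V1A (0.50) also changed more with Okbyeongpung-san, and MITF changed by -0.66 relative to Yijin-tang. Okbyeongpung-san comes from another library set than the other 2 extracts, so extract and library set cannot be told apart in these differences of changes.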

How the results depend on the processing

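Every result was recomputed with RLE size factors, with DESeq2, without the low-count filter, with the replicate number as a block, with other sets of libraries in the fit and without each library in turn, and no called change reversed. Called members at 500 against 20 µg/mL numbered 32 for Soshiho-tang (30 to 31 without one library), 16 for Okbyeongpung-san (9 to 14, and 13 with DESeq2 to 22 in the fit of 27 libraries over the other settings) and 4 for Yijin-tang (2 to 6, and 1 when only the groups compared were fitted). At 500 µg/mL the comparison of Soshiho-tang with Yijin-tang gave 32 (29 to 30 without one library), and at 100 µg/mL 1 (0 to 1, and 0 with only the groups compared). Differences of changes numbered 30 for Soshiho-tang and Yijin-tang (25 to 29), 9 for Okbyeongpung-san and Soshiho-tang (5 to 12) and 19 for Okbyeongpung-san and Yijin-tang (10 to 18, with 10 without the 20 µg/mL replicate 2 of Okbyeongpung-san and 12 without the 20 µg/mL replicate 3 of Yijin-tang). Against vehicle, Yijin-tang at 20 µg/mL gave 13 (5 to 11 without one library, 5 without vehicle replicate 1, vehicle replicate 3 or its own replicate 1), and Okbyeongpung-san at 20 µg/mL gave 0, but 1 with DESeq2, 3 without the filter and 8 in the fit of 27 libraries. The cause of these shifts was not tested.

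With the replicate block the counts at 500 against 20 µg/mL were 32 for Soshiho-tang, 15 for Okbyeongpung-san and 3 for Yijin-tang. Same-numbered Soshiho-tang and Yijin-tang libraries deviated together at correlations of -0.16 to 0.26, with 4 of 45 pairs over 0.1. The highest joined Soshiho-tang 20 µg/mL replicate 3 and Yijin-tang 500 µg/mL replicate 3, the libraries that stood apart from their groups. Whether same-numbered libraries share more than a number was not tested. Members called under every alternative were 29 of 32 for Soshiho-tang, 8 of 16 for Okbyeongpung-san and 1 of 4 for Yijin-tang. Searching only the 250 bases before the start left 9 member promoters with CACGTG (6.34% of all promoters). A pseudocount of 0.5 left 10 Soyo-san members past the limit. RRAGD and ATP6V0D2, the least abundant, are the members whose precision depth limits most, and with 2 libraries per group the smallest change called with Okbyeongpung-san was 0.27.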
